A study of Mus musculus with 2 samples.

Results

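Immediate early genes are transcribed within minutes of a stimulus, without a need for new protein synthesis. Described here are 10 of them, out of 32285 genes counted in single cells of the mouse thalamus. The genes were chosen by name with earlier results of these data known: the FOS group genes Fos and Fosb, the JUN group genes Jun, Junb and Jund, the transcription factor genes Egr1, Atf3 and Nr4a1, and Ier2 and Dusp1. Levels, shares of positive cells and joint detection of these genes are therefore descriptions and carry no test.

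Thalamic tissue came from 2 wildtype C57BL/6J mice aged 2 months and labelled as untreated, with 1 10x Genomics 3' (version 3) library from each. Both form a single group, so the design holds no treatment or mutant, and all comparisons are between cell classes or between the individual animals. Cells of both mice were freed with the same enzymes, papain, then the one spelled protase in the labels, then dispase, in a choline chloride medium. The labels give neither the duration nor the temperature of that step, nor a day of preparation, and the sex of the animals is not given in them.

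FOS and JUN proteins pair through leucine zippers to form the AP-1 transcription factor, which binds DNA at short elements in promoters and enhancers. JUN proteins can pair with each other, FOS proteins need a JUN partner, and ATF3 is a related factor of the ATF family that is induced by stress. Fos and Egr1 are classical targets of serum response factor, CREB also acts on the Fos promoter, and DUSP1 is a phosphatase that switches off the MAP kinases that induced it. In brain, Fos and Egr1 are widely used as signs of recent neuronal activity, and the whole group is also known to be induced in glia and vascular cells while tissue is dissociated with warm enzymes. Signals in the living animal and signals during dissociation cannot be told apart with this design.

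The windows before the transcription start of 4 members are shown because members of different protein families can be set side by side there. Each is 250 bases long, reads 5' to 3' on the strand of the gene, and comes from RefSeq (GRCm38.p6). They lie at chr12:85473640-85473889 for Fos (plus strand), chr7:19310046-19310295 for Fosb (minus strand), chr15:101266596-101266845 for Nr4a1 (plus strand) and chr17:26508473-26508722 for Dusp1 (minus strand). Starts are those of RefSeq, and the windows of Nr4a1 and Dusp1 lie inside the longer gene spans of the GENCODE annotation given further on. Capitals mark matches to the motifs searched in these letters.
Fos: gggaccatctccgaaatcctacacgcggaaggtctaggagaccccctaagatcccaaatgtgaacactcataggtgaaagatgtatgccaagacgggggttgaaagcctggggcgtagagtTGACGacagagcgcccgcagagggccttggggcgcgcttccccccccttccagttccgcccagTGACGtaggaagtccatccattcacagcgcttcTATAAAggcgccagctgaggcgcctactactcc
Fosb: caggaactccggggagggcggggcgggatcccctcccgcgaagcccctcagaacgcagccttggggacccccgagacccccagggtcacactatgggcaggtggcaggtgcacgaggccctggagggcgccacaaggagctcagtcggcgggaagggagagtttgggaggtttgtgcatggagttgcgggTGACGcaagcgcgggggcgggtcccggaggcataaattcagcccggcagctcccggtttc
Nr4a1: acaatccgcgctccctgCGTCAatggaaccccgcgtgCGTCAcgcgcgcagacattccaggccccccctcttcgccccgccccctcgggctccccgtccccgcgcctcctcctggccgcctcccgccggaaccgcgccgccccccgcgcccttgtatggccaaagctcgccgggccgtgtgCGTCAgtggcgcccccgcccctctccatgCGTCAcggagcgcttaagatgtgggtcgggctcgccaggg
Dusp1: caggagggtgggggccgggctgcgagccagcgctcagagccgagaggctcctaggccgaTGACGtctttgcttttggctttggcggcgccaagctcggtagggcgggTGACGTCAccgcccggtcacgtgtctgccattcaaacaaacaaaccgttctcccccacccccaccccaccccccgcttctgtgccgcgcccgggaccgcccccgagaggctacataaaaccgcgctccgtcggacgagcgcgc

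Windows with 50 further bases after the start were searched for 5 motifs in 8 of the 10 members, with Egr1 and Ier2 not analysed here. The Atf3 window also lies inside its GENCODE span, and the Jund window ends upstream of the GENCODE start of Jund. The short cAMP response element TGACG was counted on both strands, where its other reading is CGTCA. It was present in 6 of 8, namely Fos, Fosb, Junb, Atf3, Nr4a1 and Dusp1, and in 20.81% of the 32851 promoters of the same length in the RefSeq set. The full palindromic element TGACGTCA, which contains the short element on each strand, was present in Dusp1 alone, 143 to 136 bases before the start, and in 1.79% of all promoters. The Fos window held the short element at 129 to 125 and at 66 to 62 bases before the start, and TATAAA, searched on the strand of the gene, at 33 to 28. Nr4a1 held 4 short elements. TATAAA also matched at the first 6 bases after the RefSeq start of Junb. By GENCODE these bases lie upstream of the start of Junb, which is at 84978718 on the minus strand of chr8. TATAAA was found in 8.319% of all promoters. The CArG box, the element bound by serum response factor, and the AP-1 element, which reads TGAGTCA on one strand while its reverse complement reads TGACTCA on the other, had no match in these 8 windows, against 1.629% and 5.202% of all promoters. Bases upstream of these windows were not searched, so the lack of a match does not show that a gene lacks either element. With shares this low among all promoters, 8 windows also cannot show a shortage of them. A match describes letters only.

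The genes lie on 8 chromosomes in the GENCODE vM21 annotation (GRCm38). Fos is at chr12:85473890-85477273 (plus strand), Fosb at chr7:19302696-19310051 (minus), Jun at chr4:95049034-95052222 (minus), Junb at chr8:84974484-84978718 (minus) and Jund at chr8:70698949-70700616 (plus). Egr1 is at chr18:34859823-34864984 (plus), Atf3 at chr1:191170296-191218039 (minus), Nr4a1 at chr15:101254269-101274795 (plus), Ier2 at chr8:84661331-84662852 (minus) and Dusp1 at chr17:26505590-26562128 (minus). An antisense gene overlaps Jun (Junos) and Jund (Gm11175), Prdx2 overlaps Junb on the other strand, and Gm50275 and Ergic1 overlap Dusp1. Neither labels nor file headers state a strand setting for the counting, so reads of these overlapping pairs may not be separable.

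The deposited values are unique molecule (UMI) counts, 204839993.0 in mouse 2 and 163418203.0 in mouse 1, and 9176 cells of mouse 2 and 6185 of mouse 1 were kept, with medians of 14759 and 17998 UMIs per cell. Clustering without the 10 genes or the companion lists used below gave 33 clusters, of which 28 were named from marker genes. The classes matched thalamus with the adjoining habenula: glutamatergic neuron-like cells (Slc17a6, Tcf7l2), habenular neuron-like cells (Pou4f1, Tac2), neurons that no subclass marker set resolved, astrocyte-like, oligodendrocyte-like, committed and uncommitted oligodendrocyte precursor-like, microglia-like, border macrophage-like, endothelial-like, mural-like and vascular leptomeningeal fibroblast-like cells had at least 20 cells in each mouse. Levels are given in CPM, the UMIs of a gene summed over the cells of a class in 1 mouse, divided by all UMIs of that sum and multiplied by 1000000. The 2 libraries stood far apart for the genes described here, so each value is given for each mouse, and a fold between mice carries a counting interval (95%, exact) that covers counting error only. UMIs of all 5 pan-neuronal markers (Snap25, Syt1, Rbfox3, Stmn2, Meg3) were present in every non-neuronal class, with summed levels of 250 to 883 CPM in mouse 2 and 108 to 714 CPM in mouse 1.

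All 10 genes were higher in mouse 2 than in mouse 1 in nearly every class, in 119 of the 120 pairs of gene and class. The exception was Nr4a1 in glutamatergic neuron-like cells. In mouse 2 the immune and vascular classes (microglia-like, border macrophage-like, endothelial-like, mural-like and fibroblast-like) held the top 5 levels of Atf3, and together with oligodendrocyte precursor-like cells they held the top 6 levels of each of the other 9 genes. Astrocyte-like cells lay at or near the bottom for each gene. The spread between mice was so large that of 110 neighbouring pairs of classes, ranked by the mean of the 2 mice, only 4 differed by more than the larger SD (n = 2 mice), 3 of them for Nr4a1 and 1 for Jund. The order of the classes is therefore given within each mouse.

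Fos, the founding AP-1 partner, reached 5998 CPM in mouse 2 and 27.2 CPM in mouse 1 in vascular leptomeningeal fibroblast-like cells, a fold of 220.4-fold [112 to 511] that rests on 8 UMIs in mouse 1. Mural-like cells had 3419 CPM in mouse 2 and 459.6 CPM in mouse 1. Microglia-like cells had 2444 CPM in mouse 2 and 121 CPM in mouse 1, 20.2-fold [19.1 to 21.4]. These 3 classes held the highest Fos levels in mouse 2, and mural-like and microglia-like cells were also the top pair in mouse 1. Endothelial-like cells had 1796 CPM in mouse 2 and 32.3 CPM in mouse 1, 55.7-fold [49.9 to 62.3], and border macrophage-like cells had 1385 CPM in mouse 2 and 53.2 CPM in mouse 1. In the oligodendrocyte lineage Fos was at 1682 CPM in mouse 2 and 16.5 CPM in mouse 1 in precursor-like cells, at 336 and 6.15 CPM in committed precursor-like cells and at 239.6 and 2.94 CPM in oligodendrocyte-like cells of mouse 2 and mouse 1. The 3 stages had ordered levels in each mouse, highest in the precursors. The smallest fold of the 12 classes was in glutamatergic neuron-like cells, at 172 CPM in mouse 2 and 33.7 CPM in mouse 1, 5.10-fold [4.76 to 5.48], while habenular neuron-like cells were at 428 and 30.9 CPM and unresolved neurons at 267 and 20.1 CPM in mouse 2 and mouse 1. Astrocyte-like cells were lowest in each animal, with 73.5 CPM in mouse 2 and 1.86 CPM in mouse 1.

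Fosb, a FOS protein whose truncated splice form is long-lived in neurons, was higher in mouse 2 in all 12 classes, and in several classes of mouse 1 it rested on a few UMIs. Its level was 977 CPM in mouse 2 and 6.26 CPM in mouse 1 in oligodendrocyte precursor-like cells, 156-fold [93.1 to 286]. Fibroblast-like cells had 2631 CPM in mouse 2 and 6.80 CPM in mouse 1, from 1173 and 2 UMIs. Mural-like cells, at 758 CPM in mouse 2 and 40 CPM in mouse 1, showed the smallest fold, 18.9-fold [15.9 to 22.7], and mouse 1 had its highest Fosb level there. Endothelial-like cells had 567 CPM in mouse 2 and 5.91 CPM in mouse 1, border macrophage-like cells 466 and 3.23 CPM and microglia-like cells 343 and 10.8 CPM in mouse 2 and mouse 1. In oligodendrocyte-like cells the level was 79.2 CPM in mouse 2 and 0.248 CPM in mouse 1 (4086 and 14 UMIs), and in committed precursor-like cells it was 215 CPM in mouse 2 against a single UMI in mouse 1. Neurons followed the same pattern, with 76.4 and 0.963 CPM in glutamatergic, 268 and 2.02 CPM in habenular and 194 and 0.925 CPM in unresolved neuron-like cells of mouse 2 and mouse 1. Astrocyte-like cells had 14.6 CPM in mouse 2 and no UMI in mouse 1. With mouse 1 set to a floor of 3 UMIs in its class sum, the level was 75.6-fold higher in mouse 2. The lower limit of the counting interval was 59.3-fold.

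**Figure D1:**
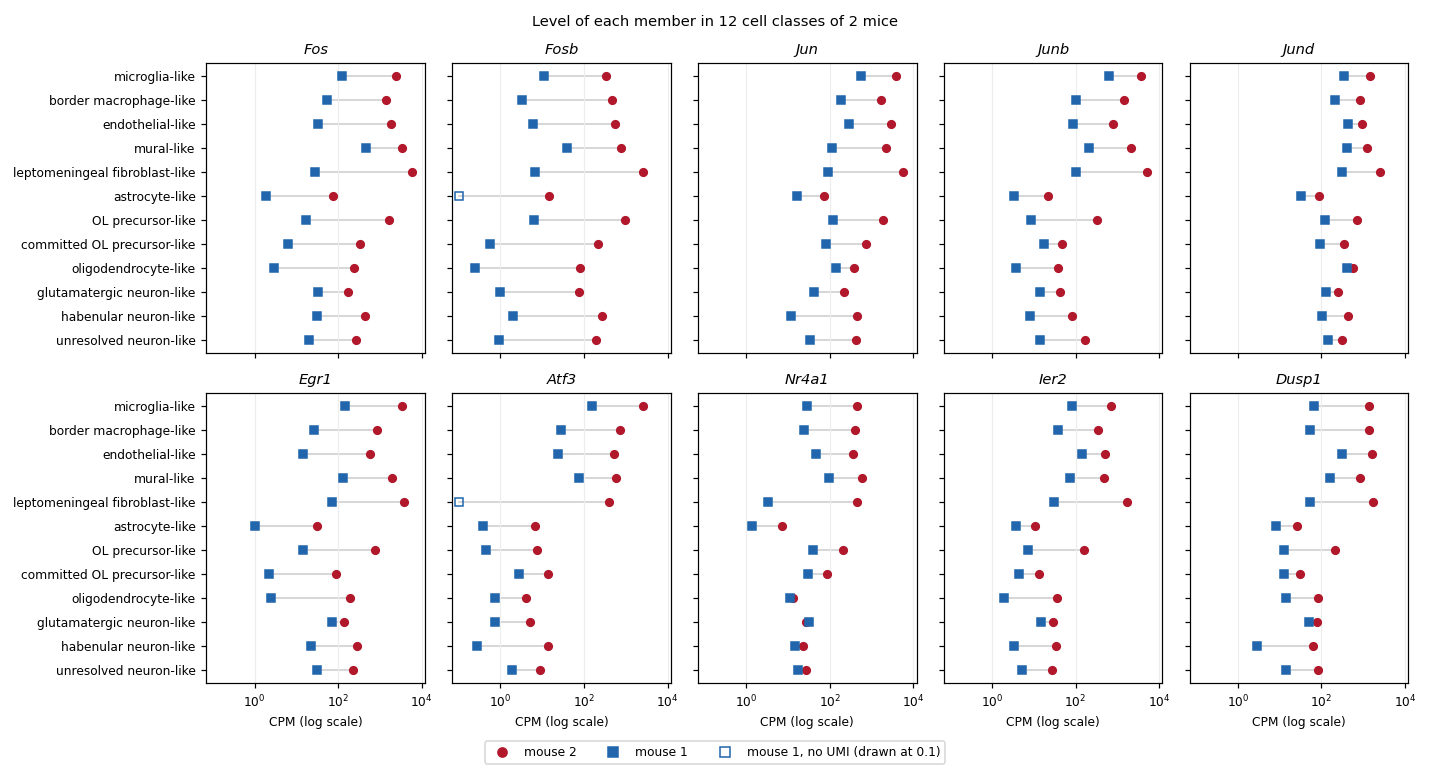
Level of each of the 10 genes (CPM of the class sum, log axis) in 12 cell classes (OL, oligodendrocyte). Each point is 1 mouse, and an open point at the low end of the axis stands for no UMI. Fos in microglia-like cells is at 2444 CPM in mouse 2 and 121 CPM in mouse 1, and in astrocyte-like cells at 73.5 and 1.86 CPM.

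Jun, which encodes the classical partner of FOS, had 3893 CPM in mouse 2 and 562 CPM in mouse 1 in microglia-like cells, 6.93-fold [6.74 to 7.13]. Its highest level in mouse 2 was in fibroblast-like cells, with 5569.8 CPM in mouse 2 and 88.5 CPM in mouse 1. Endothelial-like cells had 2898 CPM in mouse 2 and 293 CPM in mouse 1, mural-like cells 2186 and 115 CPM and oligodendrocyte precursor-like cells 1835 and 118 CPM in mouse 2 and mouse 1. Microglia-like and endothelial-like cells held the highest Jun levels of mouse 1. The smallest fold was in oligodendrocyte-like cells, 372 CPM in mouse 2 and 139 CPM in mouse 1 or 2.68-fold [2.61 to 2.75]. Among neurons, Jun was at 216 and 42 CPM in glutamatergic, 431 and 33.3 CPM in unresolved and 437 and 11.6 CPM in habenular neuron-like cells of mouse 2 and mouse 1, the last a fold of 37.8. Border macrophage-like cells had 1691 and 189 CPM, committed precursor-like cells 729.5 and 82.7 CPM and astrocyte-like cells 72.1 and 16.1 CPM.

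Junb, a JUN protein that can dampen the activity of JUN at some promoters, was highest in microglia-like cells in mouse 1 and second to fibroblast-like cells in mouse 2. Microglia-like cells had 3663 CPM in mouse 2 and 619 CPM in mouse 1, 5.92-fold [5.76 to 6.09], and fibroblast-like cells had 5153 CPM in mouse 2 and 102 CPM in mouse 1. Mural-like cells had 2166.3 and 205 CPM, border macrophage-like cells 1452 and 101 CPM, endothelial-like cells 808 and 85.3 CPM and oligodendrocyte precursor-like cells 322 and 8.49 CPM in mouse 2 and mouse 1. In the remaining 6 classes Junb stayed between 21.6 CPM (astrocyte-like) and 168 CPM (unresolved neurons) in mouse 2 and between 3.34 and 17.3 CPM in mouse 1, where the upper end was the committed precursor-like class.

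Jund, the JUN gene known for steady expression without stimulation, had the smallest difference between mice of the 10, with a median fold over the 12 classes of 3.29. Oligodendrocyte-like cells had 575 CPM in mouse 2 and 419 CPM in mouse 1, 1.37-fold [1.35 to 1.40], from 29686 and 23674 UMIs. Glutamatergic neuron-like cells had 256 CPM in mouse 2 and 131 CPM in mouse 1 and endothelial-like cells 917 CPM in mouse 2 and 442 CPM in mouse 1. In mouse 1 Jund ranged from 33.3 CPM in astrocyte-like cells to 442 CPM in endothelial-like cells. Microglia-like cells had 1429.9 CPM in mouse 2 and 351 CPM in mouse 1 and fibroblast-like cells 2517 CPM in mouse 2 and 313 CPM in mouse 1, the largest fold at 8.04.

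Egr1, a zinc finger factor downstream of serum response factor, was higher in mouse 2 in all 12 classes, with its smallest fold in glutamatergic neuron-like cells. It was at 3424 CPM in mouse 2 and 143 CPM in mouse 1 in microglia-like cells, 24-fold [22.8 to 25.3]. Fibroblast-like cells had 3816 and 71.4 CPM, mural-like cells 1992 and 130.0 CPM and oligodendrocyte-like cells 188 and 2.40 CPM in mouse 2 and mouse 1, the last a fold of 78.3. Glutamatergic neuron-like cells were at 136 CPM in mouse 2 and 71.7 CPM in mouse 1, 1.89-fold [1.80 to 1.99]. In mouse 1 the only classes with a higher Egr1 level were microglia-like and mural-like cells, and fibroblast-like cells were nearly level at 71.4 CPM from 21 UMIs. Habenular neuron-like cells had 286 and 22.2 CPM and unresolved neurons 223 and 31.7 CPM in mouse 2 and mouse 1.

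Atf3, induced in many cell types by stress signals, was high in the immune and vascular classes and low elsewhere. Microglia-like cells had 2566 CPM in mouse 2 and 158 CPM in mouse 1, 16.3-fold [15.5 to 17.1], and border macrophage-like, mural-like and endothelial-like cells had 743 and 28 CPM, 580.1 and 76.2 CPM and 517 and 24.3 CPM in mouse 2 and mouse 1. Fibroblast-like cells had 406 CPM in mouse 2 and no UMI in mouse 1. By the same floor the level was 39.8-fold higher in mouse 2, with a lower limit of the counting interval of 32.0-fold. In the other 7 classes, the neurons, the astrocytes and the oligodendrocyte lineage, Atf3 stayed between 4.05 and 14.1 CPM in mouse 2 and between 0.269 and 2.79 CPM in mouse 1.

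Nr4a1, an orphan nuclear receptor, was highest in mural-like cells, 592 CPM in mouse 2 and 95.9 CPM in mouse 1, 6.17-fold [5.48 to 6.96]. Microglia-like cells had 453 CPM in mouse 2 and 28 CPM in mouse 1, endothelial-like cells 369 CPM in mouse 2 and 47.9 CPM in mouse 1 and oligodendrocyte precursor-like cells 212 CPM in mouse 2 and 40.7 CPM in mouse 1. In neurons and mature oligodendrocytes Nr4a1 differed less between the animals. Glutamatergic neuron-like cells had 26.6 CPM in mouse 2 and 31.1 CPM in mouse 1, 0.857-fold [0.789 to 0.932], and within the class mouse 2 was lower in 3 of the 4 main clusters: 33.9 against 44.4 CPM in cluster 6, 24.5 against 27 CPM in cluster 13 and 28.8 against 33.8 CPM in cluster 24. In cluster 10 mouse 2 was the higher, 23 against 20.4 CPM. Oligodendrocyte-like cells had 13.2 and 10.9 CPM, habenular neuron-like cells 23.3 and 14.4 CPM and unresolved neurons 26.7 and 17.6 CPM in mouse 2 and mouse 1.

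Ier2, an early response gene first known from growth factor treatment, was at 1705 CPM in mouse 2 and 30.6 CPM in mouse 1 in fibroblast-like cells and at 719.9 CPM in mouse 2 and 80.6 CPM in mouse 1 in microglia-like cells, 8.94-fold [8.30 to 9.62]. Endothelial-like cells had 497 CPM in mouse 2 and 139 CPM in mouse 1 and held the highest Ier2 level of mouse 1. Oligodendrocyte precursor-like cells had 159 CPM in mouse 2 and 7.15 CPM in mouse 1, 22.2-fold [13.7 to 38.9], and glutamatergic neuron-like cells 29.6 CPM in mouse 2 and 14.8 CPM in mouse 1, 2.00-fold [1.79 to 2.23].

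Dusp1, the MAP kinase phosphatase that closes the loop, was highest in endothelial-like cells by the mean over mice, with 1662 CPM in mouse 2 and 309 CPM in mouse 1, 5.37-fold [5.13 to 5.62]. Fibroblast-like cells had 1705 CPM in mouse 2 and 54.4 CPM in mouse 1, microglia-like cells 1372 CPM in mouse 2 and 65.9 CPM in mouse 1 and border macrophage-like cells 1345 CPM in mouse 2 and 52.7 CPM in mouse 1. The highest Dusp1 levels of mouse 1 were in the vessels, at 309 CPM in endothelial-like and 158 CPM in mural-like cells. Glutamatergic neuron-like cells had 79.9 CPM in mouse 2 and 49.9 CPM in mouse 1, 1.60-fold [1.51 to 1.70], whereas habenular neuron-like cells had 62.8 CPM in mouse 2 and 2.96 CPM in mouse 1, 21.2-fold [13.9 to 34.1].

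Ranked by the median fold of mouse 2 over mouse 1 across the 12 classes (values of 3 UMIs or fewer in mouse 1 set to 3), the FOS genes and Egr1 led and Jund came last. The medians were 131 for Fosb, 32.7 for Fos, 31.3 for Egr1, 11.9 for Atf3, 10.4 for Junb, 9.41 for Jun, 7.67 for Ier2, 5.76 for Dusp1, 5.09 for Nr4a1 and 3.29 for Jund. Among 3472 genes with at least 50 CPM in 6 or more classes, Fosb, Fos, Egr1, Junb, Jun, Ier2 and Dusp1 took ranks 1 to 7, Nr4a1 was 10th and Jund 15th. Atf3 reached that level in too few classes to be ranked. The genes at ranks 8 and 9 were Kcnip4, a neuronal potassium channel subunit gene, and AY036118.

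**Figure D2:**
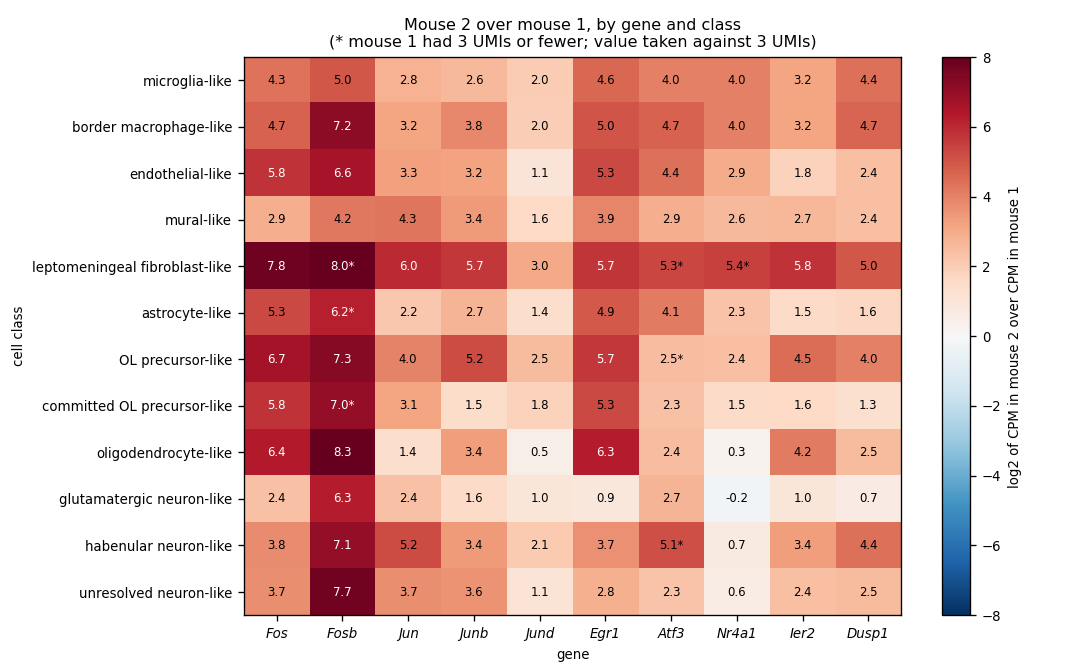
Fold of mouse 2 over mouse 1 (log scale) for each of the 10 genes in each of the 12 classes. Mouse 1 values of 3 UMIs or fewer were set to 3. All folds lie above 1 apart from Nr4a1 in glutamatergic neuron-like cells at 0.857.

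Read against all genes, a difference of this size between the mice was rare. Of 46592 pairs of gene and class with at least 50 CPM on average, 0.889% were at least 4-fold higher in mouse 2, against 72 of 85 such pairs of the 10 genes. In microglia-like cells 10 of 10 members passed that fold and 2.5% of all genes did, and in fibroblast-like cells 10 of 10 against 1.7%. The counts were 9 of 10 in border macrophage-like cells (2.73% of all genes), 9 of 10 in mural-like cells (0.959%), 8 of 10 in endothelial-like cells (1.03%) and 9 of the 9 that reached 50 CPM in oligodendrocyte precursor-like cells (0.42%). In neurons the counts were 2 of 5 in glutamatergic neuron-like cells (0.289%), 5 of 5 in habenular neuron-like cells (0.426%) and 5 of 6 in unresolved neurons (0.191%). Committed precursor-like cells had 3 of 5 (0.385%), oligodendrocyte-like cells 2 of 4 (0.142%), and in astrocyte-like cells the 1 member at that level, Jund, did not pass (0.0555%). The members were chosen with such values known, so these counts describe them and support nothing further. With 1 library from each mouse there is no test of the difference.

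Genes around AP-1 were followed through 6 lists, and the share past the 4-fold mark differed from list to list. Among other immediate early genes, 36 of 64 gene and class pairs at 50 CPM or more were at least 4-fold higher in mouse 2. Among feedback inhibitors of MAP kinase and NF-kB signalling 25 of 88 were, and over all genes 0.889%. Feedback inhibitors passed only in the immune and vascular classes, with 7 of 13 in microglia-like and 3 of 10 in endothelial-like cells. Other immediate early genes passed in 8 of 10 in microglia-like, 2 of 3 in oligodendrocyte precursor-like and 1 of 9 in endothelial-like cells. In microglia-like cells Egr3, a zinc finger factor, had 203 CPM in mouse 2 and 8.67 CPM in mouse 1, Zfp36, which destabilizes cytokine mRNA, had 2822 CPM in mouse 2 and 441 CPM in mouse 1, and Gadd45b had 486 CPM in mouse 2 and 27 CPM in mouse 1. Nfkbiz, an inhibitor-like cofactor of NF-kB, had 1876 CPM in mouse 2 and 138 CPM in mouse 1 there. Heat shock and chaperone genes passed in 7 of 114 pairs. These included Hspa1a at 17.7-fold in fibroblast-like, 15.4-fold in border macrophage-like and 9.06-fold in mural-like cells. The median fold of this list was below 1 in all classes but microglia-like cells, where it was 1.27. It was 0.570 in mural-like cells and lowest in oligodendrocyte-like cells, at 0.527. Hspa1a and Hspa1b are near-identical copies, so reads between them are uncertain. AP-1 dimer partners passed in 2 of 82 pairs and upstream kinases and transcription factors in 0 of 136. These are counts past a fold, with no test behind them. Genes of these lists named here were chosen after their values were seen.

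Activity-dependent genes of neurons formed the sixth list, with 1 of 17 pairs passing the 4-fold mark. That pair was Homer1 in fibroblast-like cells, at 43.1-fold. In neurons no pair at 50 CPM or more passed, with 0 of 5 in glutamatergic, 0 of 4 in habenular and 0 of 4 in unresolved cells. In glutamatergic neuron-like cells Npas4, an immediate early gene of neurons, had 35.7 CPM in mouse 2 and 4.81 CPM in mouse 1, and Arc, a synaptic immediate early gene, had 3.52 CPM in mouse 2 and 1.08 CPM in mouse 1. The slower activity-dependent genes did not share that direction as a group. Homer1 had 77.9 CPM in mouse 2 and 67.8 CPM in mouse 1, Bdnf 75.6 CPM in mouse 2 and 76.5 CPM in mouse 1, Nrn1 325 CPM in mouse 2 and 255 CPM in mouse 1, Scg2 171 CPM in mouse 2 and 237 CPM in mouse 1, Vgf 85.5 CPM in mouse 2 and 163 CPM in mouse 1 and Inhba 7.20 CPM in mouse 2 and 33.5 CPM in mouse 1. These 8 were chosen from the list of 10 after their values were seen.

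Other measures also differed between the mice. The summed level of the 5 neuronal markers in non-neuronal classes was 1.24 to 3.24 times as high in mouse 2, with 655 and 202 CPM in endothelial-like cells of mouse 2 and mouse 1. The summed level of the 10 genes was 2.66 (glutamatergic) to 42.9 (fibroblast-like) times as high. Median UMIs per cell were lower in mouse 2 in all classes but the oligodendrocyte precursors, for example 9489.5 against 12974 in microglia-like cells. The median mitochondrial share was lower in mouse 2 in 11 classes and higher in microglia-like cells, 2.12% against 1.35%. Neurons made up 27.3% of the kept cells of mouse 2 and 8.50% of those of mouse 1. Ttr, a gene very abundant in choroid plexus, was at 0.0470 CPM in mouse 2 and 263 CPM in mouse 1. The part of these measures in the difference was not tested.

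Microglia-like and mural-like cells are made up of clusters that the 2 mice filled differently, so their values were split. Of the microglia-like cells, cluster 12 held 503 cells of mouse 2 and 87 of mouse 1, and cluster 8 held 7 and 739. Within cluster 12, Fos was at 2469 CPM in mouse 2 and 869.9 CPM in mouse 1, and Egr1 at 3459.6 and 1111 CPM. The JUN genes were closer there: Jun had 3921 and 2826 CPM, Junb 3689 and 3103 CPM and Jund 1437 and 1309 CPM. The cells of mouse 1 in cluster 12 thus had JUN family levels near those of mouse 2 and lower levels of Fos and Egr1, while its other microglia-like cells, in cluster 8, had 22.1 CPM of Fos and 15.3 CPM of Egr1. Within mouse 1, cluster 12 exceeded cluster 8 by 72.7-fold for Egr1, 63.1-fold for Fosb, 45-fold for Ier2, 39.4-fold for Fos and 5.83-fold for Jund. The clusters were drawn from the genes of these same cells, although not from the 10 genes themselves, so the split is a description.

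Mural-like cells comprised a pericyte-like cluster (268 cells of mouse 2 and 328 of mouse 1) and a smooth muscle-like cluster (207 and 49). In pericyte-like cells Fos was at 2571 CPM in mouse 2 and 4.41 CPM in mouse 1, 583-fold [326 to 1169.5], and Jun at 2419 and 43.3 CPM, 55.9-fold [46.1 to 68.4]. Fosb had 762 CPM in mouse 2 and no UMI in mouse 1. In smooth muscle-like cells the difference was smaller for Fos, with 4049 CPM in mouse 2 and 1717 CPM in mouse 1, 2.36-fold [2.23 to 2.49]. Egr1 there was at 2478 CPM in mouse 2 and 406 CPM in mouse 1, a larger difference than that of Fos in the same cells. Cells of this cluster were uneven in mouse 1: at 3000 UMIs per cell the median was 8 of the 10 genes in mouse 2 and 1 in mouse 1, and 8 or more were found in 129 of 206 cells of mouse 2 and in 10 of 49 of mouse 1. The mural-like Fos of mouse 1 given above therefore came mainly from its smooth muscle-like cells (1551 of 1562 UMIs), and the 7.44-fold difference of the pooled class lay between that of the pericytes and that of the smooth muscle.

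The mice also filled the clusters of neurons unevenly, and the fold of Fos differed among them. Within glutamatergic neuron-like cells it was 15.9-fold in cluster 6 (732 cells of mouse 2 and 69 of mouse 1), 3.56-fold in cluster 13 (281 and 115), 2.18-fold in cluster 24 (70 and 68) and 2.14-fold in cluster 10 (588 and 21). The 5.10-fold difference of the pooled class lies within that range. Egr1 differed by 5.12-fold [4.08 to 6.52] in cluster 6 and by 1.28-fold [1.14 to 1.45] in cluster 24. In habenular neuron-like cells Fos differed by 10.2-fold in cluster 16, and by 198-fold [77.2 to 730.3] in cluster 20, where mouse 1 had 4 UMIs.

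**Figure D3:**
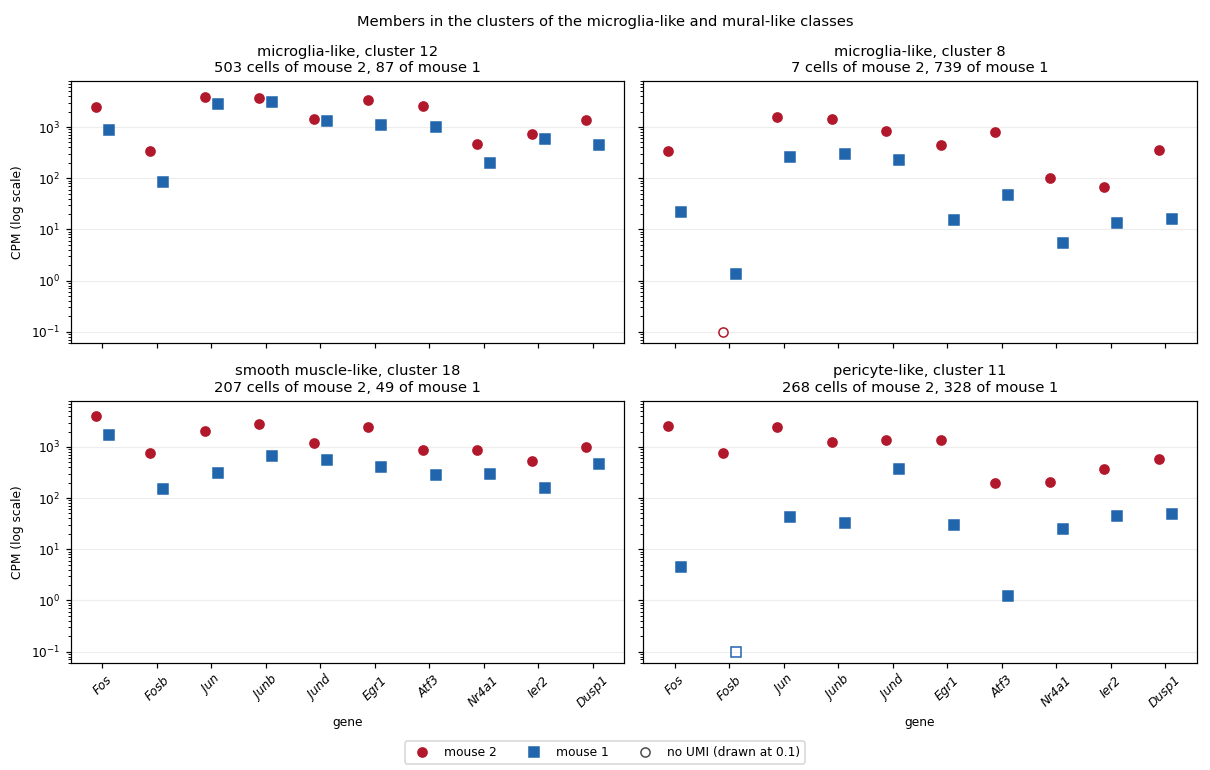
Level (CPM, log axis) of the 10 genes in the clusters that make up microglia-like cells (12 and 8) and mural-like cells (pericyte-like 11 and smooth muscle-like 18), mouse 2 left of mouse 1, with an open point at the bottom of the axis for no UMI. Fos in pericyte-like cluster 11 is at 2571 CPM in mouse 2 and 4.41 CPM in mouse 1, and in smooth muscle-like cluster 18 at 4049 and 1717 CPM.

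The share of cells with a UMI was compared after each cell was thinned to 3000 UMIs, since classes and mice differ in depth. Fos was detected in 91.3% [88.5 to 93.6] of microglia-like cells of mouse 2 and 9.77% [7.82 to 12] of those of mouse 1 (exact 95% intervals). Without thinning the shares were 97.1% and 14%. Astrocyte-like cells, the class with the least signal, had 15.6% [11.9 to 19.8] in mouse 2 and 0.681% [0.274 to 1.40] in mouse 1, at median depths of 8953 and 14473 UMIs before thinning. Their shares served as a low reference, which was chosen from these same values. Whether they reflect RNA of other cells or expression in astrocytes was not tested. Neuronal RNA was higher in some other non-neuronal classes than in astrocyte-like cells: the 5 neuronal markers summed to 350.3 CPM in astrocyte-like cells, 655 CPM in endothelial-like cells and 662 CPM in mural-like cells of mouse 2. In mouse 2 Fos shares were far above those of astrocyte-like cells in several classes, and in mouse 1 the same classes were above them by fewer percentage points. Oligodendrocyte precursor-like cells had 84.4% in mouse 2 and 4.17% in mouse 1, the latter of 144 cells. Mural-like cells had 76.3% and 5.63%, and endothelial-like cells 68.8% and 6.21%. Habenular neuron-like cells had 58.8% in mouse 2 and 4.2% in mouse 1, the latter of 143 cells. Glutamatergic neuron-like cells had 27.5% and 5.90%, and oligodendrocyte-like cells 28.4% and 0.918%.

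For Fosb the shares in mouse 2 ran from 4.61% in astrocyte-like cells to 79.4% in oligodendrocyte precursor-like and 91.3% in fibroblast-like cells, and in mouse 1 no class exceeded 5%. Jun was found in 99.4% of microglia-like cells of mouse 2 and 42.2% of those of mouse 1, and in 92.7% and 53.9% of endothelial-like cells. Jund kept high shares in both animals, with 77.9% of oligodendrocyte-like cells of mouse 2 and 69% of those of mouse 1, against 27.4% and 9.05% of astrocyte-like cells. Egr1 was detected in 96.4% and 9.77% of microglia-like cells, but in glutamatergic neuron-like cells it was at 26.8% in mouse 2 and 17.3% in mouse 1, the highest share of any class in mouse 1. Atf3 marked 96% of microglia-like cells of mouse 2 and 13.9% of those of mouse 1. Its shares in the neural classes of mouse 2, 1.29% to 2.50%, were close to the 0.865% of astrocyte-like cells. Nr4a1 was found in 8.04% of glutamatergic neuron-like cells of mouse 2 and 7.75% of those of mouse 1. Ier2 in committed precursor-like cells of mouse 2, at 2.80%, was not above its 3.17% in astrocyte-like cells. Dusp1 was detected in 88.1% and 54% of endothelial-like cells, the class in which mouse 1 came nearest to mouse 2 for this gene among the vascular classes.

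Joint detection in single cells was widespread in mouse 2. At 3000 UMIs the mean number of the 10 genes found in a cell was 8.46 in microglia-like cells of mouse 2 and 1.93 in those of mouse 1, and 99.4% and 11% of these cells had 5 or more. Fibroblast-like cells had means of 8.22 and 1.30, mural-like cells 6.15 and 1.43, endothelial-like cells 6.07 and 2.56, border macrophage-like cells 5.95 and 1.40 and oligodendrocyte precursor-like cells 5.62 and 0.792 in mouse 2 and mouse 1. In these 6 classes 67.4% to 99.4% of the cells of mouse 2 carried 5 or more of the genes, against 1.39% to 11% in mouse 1. Neurons and the later oligodendrocyte stages lay lower, from 1.96 (glutamatergic) to 3.14 (habenular) genes in mouse 2 and from 0.455 (habenular) to 1.09 (oligodendrocyte-like) in mouse 1. Astrocyte-like cells had 0.931 and 0.191, and 5 or more genes occurred in 2.59% of them in mouse 2 and in 0 of 1028 in mouse 1.

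Within microglia-like cluster 12, the mean was 8.50 genes in mouse 2 and 6.71 in mouse 1, with 5 or more in 99.6% and 87.1% of its cells. Cluster 8 of mouse 1 had 1.38. Smooth muscle-like cells had 7.82 and 3.08 and pericyte-like cells 4.76 and 1.18 in mouse 2 and mouse 1.

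**Figure D4:**
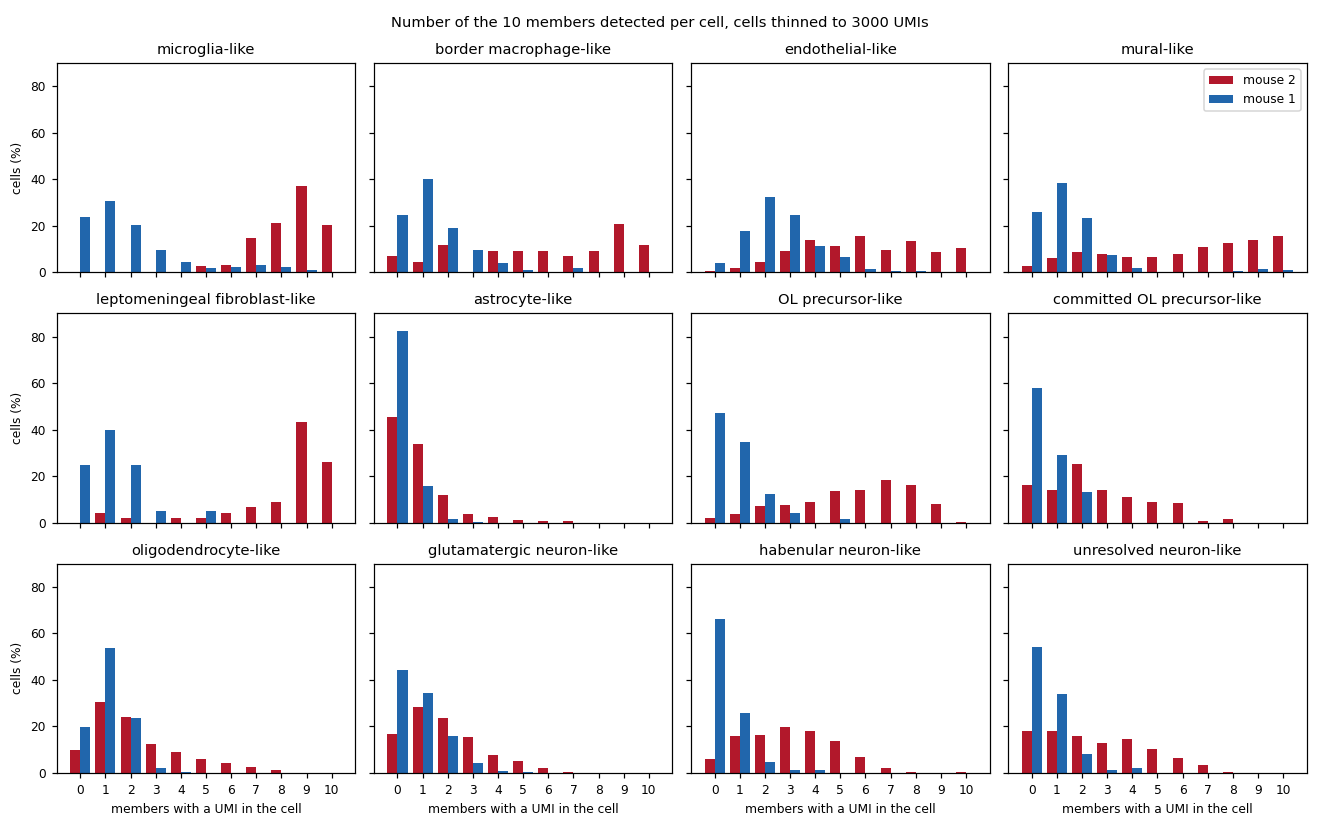
Number of the 10 genes with a UMI in a cell (x axis, 0 to 10) against the share of cells (y axis, %), for each class at 3000 UMIs per cell. Mouse 2 and mouse 1 are shown separately (OL, oligodendrocyte). The mean for microglia-like cells is 8.46 genes in mouse 2 and 1.93 in mouse 1.

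To ask whether the genes were found in the same cells, the share of cells positive for both genes of a pair was divided by the product of the 2 shares, for the pairs with at least 5 joint cells expected out of 45. In microglia-like cells of mouse 2 the median ratio was 1.01 over 45 pairs, since nearly all cells were positive for most genes. In mouse 1 it was 2.09 over 35 pairs, all above 1, with the highest value for Fos and Egr1 at 6.65. Split by cluster, the median in mouse 1 was 1.01 in cluster 12 and 1.60 in cluster 8. All 18 pairs of cluster 8 were above 1, against 24 of 45 in cluster 12. Cells of mouse 1 in cluster 12 were positive for a mean of 6.71 genes, which limits how high the ratio can go. How far that lowered the ratio was not tested. Oligodendrocyte-like cells of mouse 2 had a median of 1.60 over 42 pairs, all above 1, with the highest value for Fosb and Ier2 at 3.43. In glutamatergic neuron-like cells of mouse 2 it was 1.31 over 40 pairs, with 35 above 1. Pericyte-like cells of mouse 2 had 1.44 over 45 pairs, all above 1, and smooth muscle-like cells 1.05.

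The 5 comparisons between classes asked where the surrounding genes of the pathway sit. Sums per mouse and class were fitted with edgeR with the mouse as a block, over 17733 genes, and a gene was called at an adjusted p below 0.05 (edgeR quasi-likelihood test, Benjamini-Hochberg over all genes tested) where the log2 fold change was also 1 or more in size. Calls were counted only over the 104 listed genes, of which 103 were tested. The 10 genes themselves are given as log2 fold change ± SE without a call. The fit averages log levels over classes, so its direction can differ from that of mean CPM. P-values rest on 2 animals and on a spread shared over the classes.

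Neuronal against non-neuronal classes, the 10 genes were mostly lower in neurons. Atf3 had -3.43 ± 0.37, Junb -2.21 ± 0.37, Jun -2.20 ± 0.39, Ier2 -2.15 ± 0.40, Dusp1 -1.91 ± 0.43, Nr4a1 -1.44 ± 0.49, Fosb -1.33 ± 0.35 and Jund -1.06 ± 0.24. Fos had -0.95 ± 0.44, yet -2.02 in mouse 2 alone and 0.17 in mouse 1 alone, and Egr1 had 0.06 ± 0.40, with -1.52 in mouse 2 alone and 1.14 in mouse 1 alone. Mean Egr1 levels were 215 and 41.9 CPM over neuronal classes and 1301 and 45 CPM over non-neuronal classes in mouse 2 and mouse 1. The median of the 10 was -1.68, against 0.06 over all genes tested.

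Of the listed genes, 19 were higher and 43 lower in neurons, where 24.3% and 13.9% of all genes were called. Activity-dependent neuronal genes were higher in 9 of 10, led by Scg2, a granin of dense core vesicles, at 5.59 ± 0.19 (adjusted p = 3.2e-14), and Nrn1 at 5.32 ± 0.19. Other immediate early genes were higher in 2 (Egr4 and Nr4a2) and lower in 13 of 19. Of those that were lower, Ccn1, a secreted matrix protein gene, had -4.37 ± 0.41, and Klf2, a flow-responsive factor of endothelium, had -2.93 ± 0.57, with 14 and 8.38 CPM in neuronal and 774 and 258 CPM in non-neuronal classes of mouse 2 and mouse 1. Feedback inhibitors were higher in 3 and lower in 14 of 22, including the mRNA decay factor gene Zfp36l1 (-4.89 ± 0.31) and Socs3 (-4.25 ± 0.51), which restrains cytokine receptors. AP-1 dimer partners were lower in 8 of 17 and higher in 0, with Cebpd at -5.17 ± 0.41. Of the upstream kinases and factors 3 were higher and 3 lower of 21. Mapk10, the neuronal JNK gene, had 3.98 ± 0.22 and Elk3, a partner of serum response factor, -2.84 ± 0.18. Heat shock genes were higher in 2 and lower in 5 of 14, and Hspb1 had -2.21 ± 0.41.

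Set against the other non-neuronal classes, microglia-like cells had higher estimates for all 10 genes. They were 5.45 ± 0.32 for Atf3, 4.12 ± 0.38 for Junb, 3.44 ± 0.46 for Egr1, 2.52 ± 0.43 for Ier2, 2.26 ± 0.45 for Jun, 2.09 ± 0.52 for Fos, 1.92 ± 0.51 for Dusp1, 1.58 ± 0.59 for Nr4a1, 1.24 ± 0.47 for Fosb and 1.22 ± 0.32 for Jund. For Fosb, mean CPM in mouse 2 ran the other way, with 343 and 10.8 CPM in microglia-like cells and 714 and 7.88 CPM in the other classes of mouse 2 and mouse 1. Fibroblast-like, oligodendrocyte precursor-like, mural-like, endothelial-like and border macrophage-like cells all exceeded microglia-like cells in Fosb in mouse 2. In mouse 1, mean CPM ran the other way for Nr4a1, with 453 and 28 CPM in microglia-like cells and 266 and 31.8 CPM in the other classes of mouse 2 and mouse 1. It did so for Dusp1 too, with 1372 and 65.9 CPM in microglia-like cells and 736 and 77.9 CPM in the other classes. The median was 2.18, against 0.05 over all genes.

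Listed genes were higher in microglia-like cells in 44 and lower in 7 of 103, where 19.6% and 12.2% of all genes were called. Feedback inhibitors were higher in 14 and lower in 3 of 22. Dusp2, a nuclear MAP kinase phosphatase gene of immune cells, had 8.26 ± 0.38 (adjusted p = 3.9e-12, edgeR), and Tnfaip3, which encodes the NF-kB brake A20, had 6.95 ± 0.44, with 1201 and 136 CPM in microglia-like cells and 44.7 and 4.86 CPM elsewhere in mouse 2 and mouse 1. AP-1 dimer partners were higher in 10 and lower in 1 of 17, with Maf at 4.76 ± 0.28. Other immediate early genes were higher in 10 and lower in 1 of 19, with Egr3 at 5.02 ± 0.50 and Ccn1 at -4.79 ± 0.69. Upstream genes were higher in 6 and lower in 2 of 21, including Rps6ka1, a kinase downstream of ERK (5.23 ± 0.18), and Elk3 (3.91 ± 0.17). Heat shock genes were higher in 4 of 14, among them Hspa1b (2.37 ± 0.47) and Hspa1a (1.99 ± 0.58), and activity-dependent neuronal genes in 0 of 10.

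Vascular classes (endothelial-like and mural-like) against macroglial classes (astrocyte-like and the 3 oligodendrocyte stages) gave the highest median of the 5 comparisons. The 10 genes had a median log2 fold change of 3.51, against -0.06 over all genes. Values were 6.00 ± 0.40 for Atf3, 4.23 ± 0.45 for Ier2, 4.2 ± 0.42 for Junb, 4.13 ± 0.49 for Dusp1, 3.70 ± 0.51 for Fos, 3.33 ± 0.43 for Fosb, 3.14 ± 0.49 for Egr1, 3.0 ± 0.54 for Nr4a1, 1.80 ± 0.43 for Jun and 1.69 ± 0.28 for Jund. All kept that sign in each mouse alone. Mean Fos levels were 2608 and 246 CPM in vascular and 583 and 6.87 CPM in macroglial classes of mouse 2 and mouse 1.

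Of the listed genes 46 were higher and 3 lower in the vascular classes, where 16.8% and 17.8% of all genes were called. Other immediate early genes were higher in 16 and lower in 0 of 19, with Ccn2, a matrix protein gene of vessels, at 10.01 ± 0.47 (adjusted p = 2.6e-11, edgeR) and Klf2 at 6.38 ± 0.65. The Ccn2 level was 79.9 and 38.4 CPM in vascular classes and 0.0388 and 0.0952 CPM in macroglial classes of mouse 2 and mouse 1. Feedback inhibitors were higher in 14 and lower in 2 of 22, led by Zfp36 (4.44 ± 0.45) and Socs3 (3.72 ± 0.46). Dimer partners were higher in 7 of 17, with Cebpb at 4.45 ± 0.31 and Cebpd at 3.92 ± 0.35. Upstream genes were higher in 4 and lower in 1 of 21, Elk3 at 4.48 ± 0.19 and Mapk10 at -2.94 ± 0.36. Heat shock genes were higher in 4 of 14, including the small heat shock protein gene Hspb1 at 7.88 ± 0.50 and Hspa1b at 2.94 ± 0.49, and 1 of 10 activity-dependent genes was higher (Pcsk1).

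**Figure D5:**
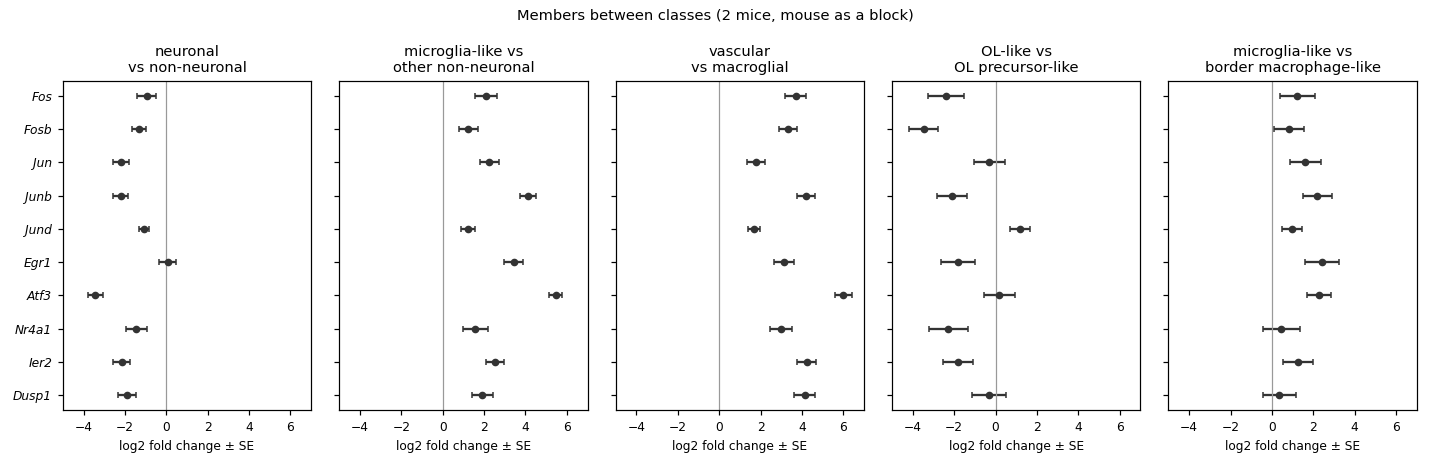
Log2 fold change ± SE of the 10 genes in the 5 comparisons between classes, from the fit over 24 sums of 2 mice and 12 classes; the line at 0 marks equal levels. Atf3 reaches 6.00 ± 0.40 in vascular against macroglial classes and -3.43 ± 0.37 in neuronal against non-neuronal classes.

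Oligodendrocyte-like against oligodendrocyte precursor-like cells, the FOS genes had the lowest estimates, with -3.47 ± 0.70 for Fosb and -2.38 ± 0.87 for Fos on the log2 scale. Nr4a1 had -2.28 ± 0.93, Junb -2.11 ± 0.71, Egr1 -1.81 ± 0.81 and Ier2 -1.81 ± 0.73. Jund had 1.20 ± 0.48, with 575 and 419 CPM in oligodendrocyte-like and 721 and 125 CPM in precursor-like cells of mouse 2 and mouse 1, so its difference lay in mouse 1. The mice also disagreed on Jun, with -1.94 in mouse 2 alone and 0.76 in mouse 1 alone, and on Dusp1, with -0.98 and 0.72. Atf3 was low in both classes, with 4.05 and 0.743 CPM in oligodendrocyte-like and 7.37 and 0.447 CPM in precursor-like cells of mouse 2 and mouse 1. The median was -1.81, against 0.03 over all genes. Listed genes were higher in 13 and lower in 27 of 103, where 15.1% and 21.7% of all genes were called. Feedback inhibitors were higher in 3 and lower in 10 of 22, with the receptor tyrosine kinase inhibitor gene Spry4 at -6.95 ± 0.56 (adjusted p = 1.1e-08, edgeR) and Zfp36l1 at -5.75 ± 0.57. Other immediate early genes were lower in 7 of 19 (Ccn1 at -6.77 ± 0.69). Heat shock genes were higher in 5 of 14, and Hsp90aa1 had 2.11 ± 0.34 and Hsp90ab1 1.70 ± 0.31. Dimer partners were higher in 1 (Ddit3, 2.05 ± 0.29) and lower in 3 of 17 (Maf, -4.88 ± 0.59), upstream genes in 3 and 3 of 21 (Mapk3, which encodes ERK1, 3.95 ± 0.22, and Mapk10, -3.10 ± 0.52), and activity-dependent genes in 1 and 4 of 10.

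Between the 2 macrophage classes, microglia-like cells exceeded border macrophage-like cells by 2.42 ± 0.83 for Egr1, 2.27 ± 0.57 for Atf3, 2.19 ± 0.70 for Junb, 1.62 ± 0.74 for Jun, 1.28 ± 0.72 for Ier2, 1.23 ± 0.85 for Fos and 0.96 ± 0.48 for Jund on the log2 scale. Fosb (0.82 ± 0.72), Nr4a1 (0.45 ± 0.90) and Dusp1 (0.36 ± 0.79) had estimates of about their SE or less. The median was 1.26, against 0.20 over all genes. Listed genes were higher in 9 and lower in 3, where 7.2% and 5.39% of all genes were called. The count of 9 fell to 5 with DESeq2 size factors and also without the block. Called genes included Dusp2 (4.11 ± 0.66, adjusted p = 2.4e-04, edgeR), Tnfaip3 (2.49 ± 0.75), Ier5 (2.00 ± 0.51), Elk3 (1.95 ± 0.30) and Rps6ka1 (1.49 ± 0.28) on the higher side and Ccn1 (-5.80 ± 0.78) on the lower. By list, other immediate early genes were higher in 1 and lower in 2 of 19, feedback inhibitors higher in 4 and lower in 1 of 22, upstream genes higher in 3 of 21, dimer partners higher in 1 of 17, and activity-dependent and heat shock genes in 0 of 10 and 0 of 14.

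The genes most like the 10 across the 24 sums, by correlation with their mean scaled log2 CPM among 4472 genes with at least 50 CPM on average, were Ppp1r15a (Pearson r = 0.91, Spearman rho = 0.93), Srsf5 (r = 0.89), Klf4 (r = 0.88), Klf6 (r = 0.87) and Btg2 (r = 0.86). Ppp1r15a encodes a phosphatase subunit of the integrated stress response, Srsf5 a splicing factor, Klf4 and Klf6 zinc finger factors and Btg2 an anti-proliferative early response protein. Sums of 1 mouse share a library, so the correlation is descriptive. Within mouse 2 alone Ppp1r15a had r = 0.91 and within mouse 1 r = 0.81, over 12 sums each, while Srsf5 had 0.89 and 0.60.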

How the data were processed

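Thalamic cells of 2 mice were profiled in 1 library each. The deposited values are raw UMI counts per gene and barcode. The processing notes of the submitters list the mm10 build, Cell Ranger 7.1.0 and Seurat 5, without roles. The sources used here give no annotation version and no intron or strand setting. Read quality was not analysed here.

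Barcodes under 500 genes or under 1000 UMIs, or with over 15% of UMIs from mitochondria, were dropped, and Scrublet removed 262 doublets of mouse 2 and 181 of mouse 1 (2.78% and 2.84%, where 9.69% and 6.31% were expected). The libraries share 36 barcodes, 15 among kept cells. Clusters (Leiden, resolution 1, 2000 variable genes, 30 components, 15 neighbours, no integration) were named from at least 3 markers, with the 10 genes and all listed genes held out of the variable genes. Clustering ran in scanpy 1.11.5 with leidenalg 0.10.2 and anndata 0.12.19 under Python 3.11.15, and intervals came from scipy 1.17.1. Fits ran in R 4.3.3 with edgeR 4.0.16, and DESeq2 1.42.0 served for alternatives.

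Counts were summed by mouse and class (24 sums) and fitted in edgeR after filterByExpr and TMM scaling, as a quasi-likelihood model (robust) of class and mouse, with 11 residual degrees of freedom and a common biological coefficient of variation of 0.23. The mouse is a block because all classes come from the same 2 animals. In simulated counts for these sums, the fit was tested with known fold changes. The simulated counts had the same spread for every gene and no difference between mice, so they do not cover the differences seen here. GABAergic neuron-like (13 cells of mouse 2 and 24 of mouse 1) and ependymal-like cells (29 and 4) did not have 20 cells in each mouse and stayed out of all comparisons.

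The 10 genes, the gene lists and the comparisons were chosen with earlier results of these data known. From each list, up to 2 called genes in a comparison were named, those with the largest absolute log2 fold change with 1 direction in both mice whose higher side reached 50 CPM; a gene that the rule would name is not reported here. The comparison of levels with all genes at 4-fold and the values of single clusters were added after the data were seen. Alternatives covered scaling, the tool, filters, thinning depth, clustering, the block and leaving out a mouse. Intervals cover counting error only.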

Additional observations from a re-analysis of the deposited data

Results flagged for a closer look

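Cells that the marker rule left without a name were outside every comparison above, so the summed level of the 10 genes in their clusters is given here. Cluster 15, in which endothelial and pericyte markers occur together, had a summed level of 9893 CPM in mouse 2 and 1258 CPM in mouse 1. Cluster 23, led by haemoglobin genes, had 6074 CPM in mouse 2 and 478 CPM in mouse 1. Cluster 28, led by B cell genes such as Cd79a and Ms4a1, had 5625 CPM in mouse 2 and 2041 CPM in mouse 1. Cluster 26, with microglial genes beside haemoglobin, had 12119 CPM in mouse 2 (12 cells) and 829.7 CPM in mouse 1, and cluster 25, with shallow cells and leading genes of glutamatergic neurons, had 1697 CPM in mouse 2 (19 cells) and 382 CPM in mouse 1. Mouse 2 was the higher in all 5 of these clusters.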

How the results depend on the processing

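The level was higher in mouse 2 in 119 of 120 pairs of gene and class with at least 3000 UMIs in each cell, in 117 of 120 at Leiden resolution 0.5, in 118 of 120 with listed genes allowed among the variable genes, and in 109 of 110 at a mitochondrial limit of 5%, which left too few fibroblast-like cells to use. Over these settings, the scalings and the mean over cells, all chosen after the data were seen, the median fold ranged from 112 to 137 for Fosb, from 30.1 to 40.2 for Fos and from 3.28 to 3.48 for Jund.

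Thinning mattered for the number of the 10 genes found in a cell, averaged over the 2 mice. Without thinning it was 1.40 in astrocyte-like, 3.88 in committed precursor-like, 5.96 in glutamatergic, 4.50 in habenular, 3.34 in oligodendrocyte-like and 4.66 in unresolved neuron-like cells, and at 1000 UMIs it was 0.601 in glutamatergic neuron-like cells. Those classes are the deeply sequenced ones or the low ones.

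Counts of called listed genes stayed within 1.5 times the reported count in 76 of 80 alternatives. The exceptions were the vascular comparison at a mitochondrial limit of 5% (5 lower against 3), and microglia-like against border macrophage-like cells, with 5 higher (against 9) with DESeq2 size factors in edgeR, and 5 higher and 1 lower (against 9 and 3) with no replicate block. The pairing by mouse changed no other count that far. Leaving out a mouse left no residual degrees of freedom, so no count was possible. The log2 fold changes of the 10 genes, 50 over the 5 comparisons, moved by more than their SE in 14 without mouse 1, in 22 without mouse 2 (with 1 more reversed), in 15 at a mitochondrial limit of 5%, in 12 with no replicate block and in 1 at Leiden resolution 0.5. Nr4a1 in neuronal against non-neuronal classes was -2.61 without mouse 1 and 0.012 without mouse 2, against -1.44 with both. Egr1 in that comparison was -1.26 with no replicate block, against 0.06 with it. Fosb in microglia-like against border macrophage-like cells was -0.12 without mouse 1, against 0.82 with both. The causes were not tested. The number of mice, and the small fibroblast-like class (48 cells of mouse 2 and 21 of mouse 1) and border macrophage-like class (50 and 112), limit the precision.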
